A study of Bos taurus with 24 samples.

Results

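The genes described here are 10 members of the Notch pathway, namely the receptors NOTCH1, NOTCH2 and NOTCH3, the ligands JAG1 and JAG2, and the HES and HEY genes HES1, HES4, HEY1, HEY2 and HEYL, measured by RNA-Seq in bovine dermal fibroblasts. The members were named by symbol, and 9 of the 10 had a row under their symbol among the 27550 rows with a symbol (59846 rows in all). NOTCH3 had none and was read from the row LOC789485, whose number is the RefSeq gene ID of bovine NOTCH3. The list was chosen by symbol with the breed and LPS differences of these same 24 samples in view. Every count of members past a threshold, and every false discovery rate (FDR), is therefore a description of where these genes stood in a fit over all rows, and no independent support for a pathway pattern. The question of the study was how the response of fibroblasts to lipopolysaccharide (LPS), the endotoxin of the Gram-negative bacterial envelope, differs between a dairy and a beef breed. Cultures came from the shoulder skin of 4 Holstein and 4 Angus heifers of the same age, 1 culture per animal, revived together from frozen stocks and grown in medium with fetal bovine serum. RNA was taken before LPS (0 h) and 2 h and 8 h after 100 ng/ml LPS, which gave 6 groups of 4 samples. Holstein and Angus cultures all received LPS, and the only samples without it are those at 0 h, so an effect of LPS and one of time in the well cannot be told apart.

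Notch receptors are cut and activated when a Jagged or Delta ligand on a neighbouring cell binds them. The released part of the receptor enters the nucleus, joins the DNA-binding protein RBPJ and switches on genes, of which the HES and HEY repressors are the classical ones. In skin and vessel walls NOTCH3 is best known from mural cells, where JAG1 is a usual partner and HEYL a usual target, while HES1 is a short-lived oscillating repressor that many other signals also reach. Transcript levels alone do not measure receptor cleavage.

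Total counts ranged from 51014538 to 104406293 per library, and expression is in CPM (counts per 1000000 counts of the library) with TMM factors, which correct for library composition. The lowest member count in a library was 4, for HEYL, and no member had a library at 0. A library's limit of 3 counts stood at 0.029 to 0.059 CPM. In 4 libraries the COL1A1 row, checked for its coverage, held only 66.2 to 67.1 covered bases per count. In the remaining 20 it held 112 to 119. The 4 libraries also had the highest shares of matched reads, 96.23% to 96.54% against 92.88% to 95.25% in the others. They are called the libraries counted differently below, a name inferred from the COL1A1 row and not given by the labels. What set them apart was not tested. They were the 0 h libraries of Holstein animals 2 and 4 and of Angus animal 4, and the 2 h library of Angus animal 3. For NOTCH3 the same ratio lay between 69.4 and 71.5 in all 24 libraries, and for JAG1 between 69.9 and 72.1. All 10 fibroblast markers were detected in every group. At 0 h COL3A1 (log2 difference 0.92, FDR 8.69e-04) and COL1A2 (0.49, FDR 0.0208) were higher in Holstein cultures by edgeR's likelihood-ratio test. PDGFRA was lower there (-0.93, FDR 0.00122), and each difference was under 2-fold. The remaining fibroblast markers had an FDR of 0.0956 or more at that hour. The endothelial markers CDH5, KDR, CLDN5 and EGFL7 stayed under 1 CPM in every sample, as did 4 of 6 leukocyte markers, 4 of 5 melanocyte markers and the Schwann cell marker SOX10. The leukocyte markers LAPTM5 and CD68 averaged 9.37 to 15.8 CPM and 1.71 to 3.87 CPM over the 6 groups, the melanocyte marker PMEL 1.81 to 2.31 CPM and the Schwann cell marker S100B 3.95 to 6.03 CPM. The remaining endothelial markers VWF and TEK averaged 0.856 to 2.48 CPM and 0.900 to 1.56 CPM over the groups. ERG averaged 0.120 to 1.95 CPM and PECAM1 0.101 to 0.754 CPM. The keratinocyte markers are given beside the breed differences.

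The first comparison asked which members differed between the breeds at each hour. The threshold required an FDR under 0.05, a difference of at least 2-fold and a mean level above 1 CPM in edgeR's likelihood-ratio test over all rows. At 0 h, 4 of 8 members tested were past it, namely NOTCH3, JAG1, HES4 and HEYL, all higher in Holstein cultures. The share over all rows tested was 3.81%. At 2 h, 7 of 10 were past it, with HES1 and HEY1 added to these 4 and JAG2 lower in Holstein cultures, against 4.45% of all rows. At 8 h the same 4 as at 0 h were past it, of 9 tested, against 3.24% of all rows. Of the members tested, the breeds' ranges did not overlap for 4 of 8 at 0 h (17.3% of all rows tested), 6 of 10 at 2 h (23.9%) and 5 of 9 at 8 h (20.5%). Over the tested members the median log2 difference was 0.985, 1.19 and 1.4 at the 3 hours in turn, beside -0.0022, -0.0086 and 0.0057 over all rows. A row was tested when 50% of the samples reached 1 CPM before TMM scaling, so 4 cultures of 1 breed could carry it. The Holstein cultures alone did so for HES4, HEYL and HEY1 at every hour and for HEY2 at 8 h, with 0 Angus cultures at 1 CPM for HES4 at 0 h and 8 h, 1 for HEYL and HEY2 at 8 h, 3 for HES4 at 2 h and 2 in the remaining cases. A row held up by 1 breed in this way was selected toward a difference, and the counts and medians over the members tested carry that selection.

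**Figure D1:**
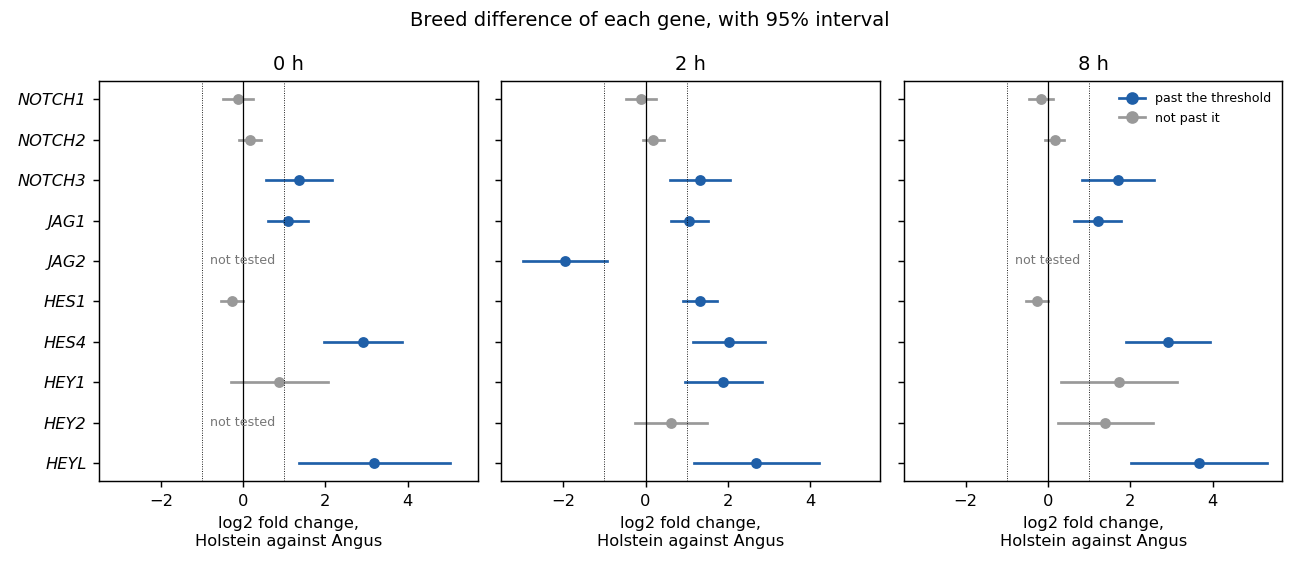
Log2 fold change of each gene, Holstein against Angus cultures, at 0 h, 2 h and 8 h, with its 95% interval; blue points passed the threshold, dotted lines mark a 2-fold difference. NOTCH3, JAG1, HES4 and HEYL lie to the right at every hour, HES1 only at 2 h (1.32), and NOTCH1 and NOTCH2 lie near 0 throughout.

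NOTCH3 (chromosome 7, 8930803-8971372, plus strand) was the receptor that differed between the breeds. At 0 h its level was 36.1, 86.8, 88.1 and 27.3 CPM in Angus animals 1 to 4 and 164, 227, 105 and 106 CPM in Holstein animals 1 to 4. At 2 h it was 38.9, 93.6, 66.7 and 30.6 CPM in Angus and 143, 221, 114 and 99.97 CPM in Holstein cultures. At 8 h it was 13.5, 44.9, 26.9 and 11.0 CPM in Angus and 81.0, 115, 68.9 and 46.6 CPM in Holstein cultures. The breeds did not overlap at any hour, with Angus animals 2 and 3 nearest to the Holstein range and Angus animals 1 and 4 far below it. The log2 difference was 1.35 (SE 0.41, FDR 0.0135) at 0 h, 1.33 (SE 0.38, FDR 0.00579) at 2 h and 1.7 (SE 0.44, FDR 0.00342) at 8 h. At 0 h the call was lost without Angus animal 1 (log2 difference 1.18, FDR 0.0762), without Holstein animal 2 (1.09, FDR 0.0779) and in the quasi-likelihood F test (FDR 0.0714).

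NOTCH1 (chromosome 11, 103985234-104015803, minus strand) and NOTCH2 (chromosome 3, 23306867-23481487, plus strand) showed no breed difference that passed the threshold. NOTCH1 was at 71.9 ± 18.0 CPM (SD, n = 4) in Angus and 65.3 ± 3.8 CPM in Holstein cultures at 0 h, a log2 difference of -0.13 with a 95% interval from -0.48 to 0.23. NOTCH2 was at 387 ± 54 CPM in Angus and 432 ± 41 CPM in Holstein cultures, a log2 difference of 0.17 with an interval from -0.10 to 0.43. At 2 h and 8 h the intervals also stayed inside a 2-fold difference for both genes.

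JAG1 (chromosome 13, 3832286-3876681, minus strand), the ligand usually paired with NOTCH3 in mural cells, was at 98.1, 219.8, 125 and 114 CPM in Angus and 329, 335, 279 and 229.5 CPM in Holstein cultures at 0 h. At 2 h it was at 104, 206, 142 and 110.0 CPM in Angus and 322, 333, 276 and 243 CPM in Holstein cultures. At 8 h it was at 79.1, 210.3, 114 and 93.3 CPM in Angus and 317, 285, 311 and 227 CPM in Holstein cultures. Every Holstein culture was above every Angus culture at each hour, although Angus animal 2 came close to Holstein animal 4. The log2 difference was 1.09 (SE 0.25, FDR 6.06e-04) at 0 h, 1.06 (SE 0.23, FDR 1.72e-04) at 2 h and 1.21 (SE 0.29, FDR 0.00113) at 8 h. These values lie close to the fold limit. Without Angus animal 1 the value was 0.96 at 0 h and 0.94 at 2 h, without Angus animal 4 it was 0.95 at 2 h and without Holstein animal 2 it was 0.998 at 2 h, each just short of 2-fold with an FDR of 0.00641 or less.

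JAG2 (chromosome 21, 71144435-71157066, minus strand), the second Jagged ligand, was the one member past the threshold with its lower level in Holstein cultures, at 2 h. At 2 h it was at 5.46, 2.32, 1.02 and 3.53 CPM in Angus and 1.30, 0.395, 0.877 and 0.586 CPM in Holstein cultures, with 26 counts in the lowest library. Only Angus animal 3 lay within the Holstein range. The log2 difference at 2 h was -1.96 (SE 0.52, FDR 0.00336). The JAG2 row was at the limit of the filter there, with 3 Angus cultures and 1 Holstein culture at 1 CPM before TMM scaling, and with the filter of 10 counts in total the difference was -1.97 (FDR 0.00453). At 0 h its row did not pass the filter, at 0.911, 0.466, 0.350 and 0.653 CPM in Angus and 0.299, 0.175, 0.265 and 0.175 CPM in Holstein cultures, which did not overlap. With the filter of 10 counts the log2 difference at 0 h was -1.36 (FDR 0.0148).

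HEYL (chromosome 3, 107032468-107047976, plus strand), a repressor known as a direct target of NOTCH3, had the widest breed difference of the members tested at each hour. At 0 h it was at 0.049, 3.16, 1.91 and 0.127 CPM in Angus and 13.7, 18.3, 7.97 and 7.34 CPM in Holstein cultures. At 2 h it was at 0.326, 7.45, 3.73 and 0.723 CPM in Angus and 22.8, 28.6, 16.6 and 11.1 CPM in Holstein cultures. At 8 h it was at 0.063, 1.55, 0.378 and 0.070 CPM in Angus and 6.89, 10.3, 5.08 and 3.76 CPM in Holstein cultures. The lowest Holstein value exceeded the highest Angus value at each hour, and within Angus animals 1 and 4 were again the low ones, as they were for NOTCH3. The log2 difference was 3.19 (SE 0.94, FDR 0.0196) at 0 h, 2.69 (SE 0.77, FDR 0.00996) at 2 h and 3.67 (SE 0.85, FDR 0.00211) at 8 h. At 8 h, when 1 Angus culture reached 1 CPM, the filter of 10 counts gave 3.64 (FDR 0.00234). At 0 h the FDR was 0.0504 without Angus animal 4, 0.0501 without Holstein animal 1 and 0.0674 without Holstein animal 2, and by the F test it was 0.0673 at 0 h and 0.0509 at 2 h. The HEYL row lies inside that of BMP8B on the same strand, whose log2 difference at 0 h was 0.37 (SE 0.12), and reads that both rows hold cannot be told apart.

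HES4 (chromosome 16, 52724740-52727540, plus strand), a HES gene that cattle and humans have and mice lack, was low in every library. At 0 h it was at 0.328, 0.455, 0.514 and 0.058 CPM in Angus and 2.3, 3.29, 1.88 and 2.63 CPM in Holstein cultures. At 8 h it was at 0.139, 0.699, 0.294 and 0.098 CPM in Angus and 3.20, 1.85, 2.41 and 1.80 CPM in Holstein cultures. At both hours no Angus library reached 1 CPM, so the row entered the test only through the Holstein cultures and had to differ. At 2 h all 4 Holstein cultures (7.75, 8.36, 5.36 and 6.33 CPM) and 3 of 4 Angus cultures (1.04, 3.44, 1.56 and 0.701 CPM) were at about 1 CPM or above, and the log2 difference was 2.04 (SE 0.44, FDR 3.01e-04). In the filter of 10 counts in total, which does not depend on the level in 1 breed, it was 2.90 (FDR 3.06e-06) at 0 h and 2.89 (FDR 2.35e-05) at 8 h. The interval without a gene symbol that starts right after HES4 (chromosome 16, 52727541-52742636) differed as well, by 2.55 at 0 h, 1.92 at 2 h and 2.69 at 8 h on the log2 scale.

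HEY1 and HEY2 are the repressors best known from heart and vessel development. HEY1 (chromosome 14, 45126101-45128997, minus strand) was at 0.766, 3.25, 2.25 and 0.756 CPM in Angus and 6.74, 8.77, 4.65 and 5.96 CPM in Holstein cultures at 2 h. The breeds were apart at that hour, with a log2 difference of 1.89 (SE 0.47, FDR 0.00184), and overlapped at 0 h, when Angus cultures were at 1.38 ± 1.05 CPM (SD, n = 4) and Holstein cultures at 2.51 ± 1.42 CPM. At 8 h they were at 0.266, 2.65, 1.62 and 0.167 CPM in Angus and 3.69, 5.23, 2.95 and 3.55 CPM in Holstein cultures, which did not overlap, with a log2 difference of 1.72 (SE 0.72, FDR 0.0904). The interval next to HEY1 on its 3′ side (chromosome 14, 45039372-45126100) was higher in Holstein cultures too, by 1.96 on the log2 scale at 2 h. HEY2 (chromosome 9, 25873435-25884617, minus strand) was not past the threshold between the breeds at 2 h (log2 difference 0.61, SE 0.45) or 8 h (1.4, SE 0.59, FDR 0.092). Angus animal 2 lay far above the other Angus cultures for HEY2 and was the highest Angus culture for HEY1 at 8 h. Without it the HEY2 difference was 1.26 (FDR 6.65e-04) at 2 h and 2.27 (FDR 1.91e-04) at 8 h, and that of HEY1 at 8 h was 2.49 (FDR 0.012). Leaving out the highest Angus culture had to widen these differences, so these FDRs give no support for them.

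Without the libraries counted differently, which left 3 Angus and 2 Holstein cultures at 0 h, no member was past the threshold at that hour. Fewer of all rows were past it as well, 258 of 20256 against 777 of 20385 with every library, so the fewer samples and the counting cannot be told apart here. The log2 differences at 0 h were then 0.94 for NOTCH3 (FDR 0.294), 1.05 for JAG1 (FDR 0.0764) and 2.68 for HEYL (FDR 0.295), and HES4 no longer passed the filter. At 2 h, without Angus animal 3, all 7 were still past the threshold, as were 1289 of 20030 rows, and at 8 h no library was of that kind. Markers of pericytes and smooth muscle cells were mixed, some higher in Holstein cultures and others alike in the breeds. Their summed level (9 markers, all matched, mostly ACTA2, which activated fibroblasts also make) at 0 h ran from 3875 to 6488 CPM in Angus cultures and from 6764 to 8384 CPM in Holstein cultures. At 2 h the ranges were 4813 to 7346 and 6637 to 7727 CPM, and at 8 h they were 3165 to 5078 and 4232 to 5816 CPM. Of that list KCNJ8 stayed under 1 CPM in every sample. RGS5 was at 1.01 CPM in Angus and 2.53 CPM in Holstein cultures at 0 h. That log2 difference was 1.33 (FDR 0.0108), past the threshold. The log2 difference of RGS5 at 8 h was 0.59 (FDR 0.377). ACTA2 differed by 0.59 (FDR 0.00792), 0.40 (FDR 0.0743) and 0.48 (FDR 0.065) at the 3 hours in turn. MYH11 differed by 0.44 (FDR 0.0171), 0.64 (FDR 3.13e-04) and 0.88 (FDR 2.27e-04), each under 2-fold. ABCC9 differed by 0.85, 0.58 and 0.54, with an FDR of 0.42 or more. CNN1 differed by 0.07, -0.22 and 0.04, and CSPG4 by 0.03, 0.002 and -0.18. At 0 h DES was at 0.046 CPM in Angus and 0.443 CPM in Holstein cultures, and MCAM at 0.778 and 0.756 CPM. Neither row was tested then. The summed endothelial list (8 markers) ran from 3.06 to 4.66 CPM in Angus and from 5.3 to 8.09 CPM in Holstein cultures at 8 h. VWF (log2 difference 1.31) and ERG (1.82) were past the threshold at that hour. VWF was also past it at 2 h (1.11, FDR 0.015), and differed by 0.89 (FDR 0.0467) at 0 h. TEK differed by -0.11, 0.65 and 0.46 at the 3 hours in turn, not past the threshold. PECAM1 and CDH5 lay the other way at 8 h, at 0.754 and 0.073 CPM in Angus and 0.292 and 0.016 CPM in Holstein cultures. ERG itself went from 0.132 CPM at 0 h to 0.549 CPM at 8 h in Angus cultures, and from 0.381 to 1.95 CPM in Holstein cultures. Of the 7 keratinocyte markers KRT1 had no count in any library, while the summed list ran from 1.49 to 2.02 CPM in Angus and from 1.82 to 13.7 CPM in Holstein cultures at 0 h, from 1.58 to 2.2 and 2.3 to 13.6 CPM at 2 h, and from 1.59 to 1.9 and 1.93 to 15.8 CPM at 8 h. Holstein animal 1 held most of it, with KRT5 at 9.20, 8.32 and 10.2 CPM at the 3 hours in turn, where the other Holstein cultures had 0.022 to 0.651 CPM and the Angus cultures 0.082 CPM or less. Without Holstein animal 1, HEYL lost its call at 0 h, HES4 left the test at 0 h and 8 h, and JAG2 left it at 2 h. That left 2 members past the threshold at 0 h, 6 at 2 h and 3 at 8 h. Over all rows 732 of 20158, 875 of 19885 and 690 of 20444 were past it, in the same order. Leaving out Holstein animal 2, 3 or 4 instead gave 1, 3 and 3 members at 0 h. At 2 h these counts were 6, 7 and 7, and at 8 h each was 3. HES4 left the test at 0 h and 8 h with any Holstein animal left out. Only the Holstein cultures carried the HES4 row at those hours, so that loss was fixed by the filter. The counts therefore cannot show whether Holstein animal 1 differs from the others in this. The summed leukocyte list (6 markers) ran from 13.2 to 20.4 CPM in Angus and from 8.58 to 21.4 CPM in Holstein cultures at 0 h. The part of a different cell makeup in the breed differences of the members was not tested, and in bulk RNA more cells of a type and more RNA per cell cannot be told apart.

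**Figure D2:**
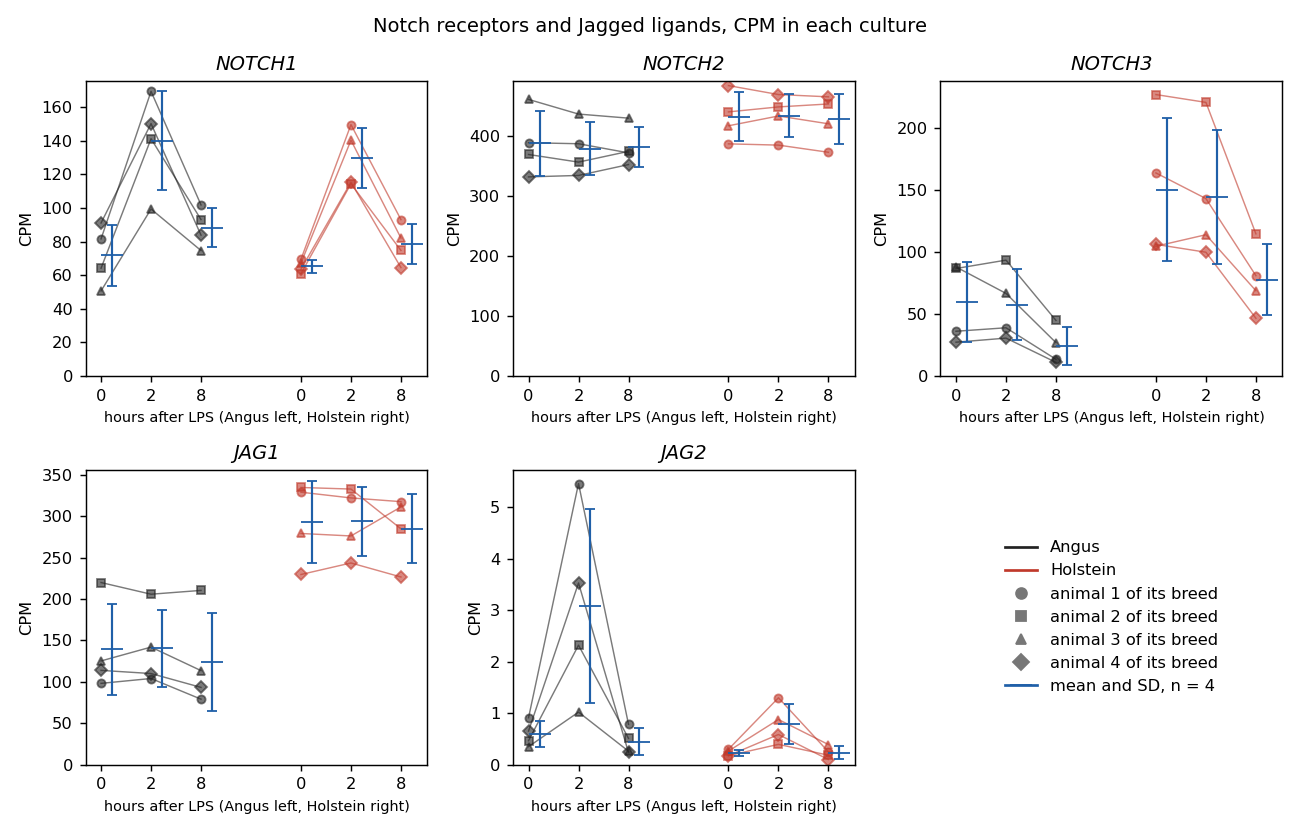
CPM of the 3 receptors and 2 ligands in each of the 24 cultures at 0 h, 2 h and 8 h (points joined by animal, Angus black on the left, Holstein red on the right), with the group mean and SD (n = 4) in blue. NOTCH3 and JAG1 are higher in every Holstein culture, NOTCH1 and JAG2 peak at 2 h in every animal, and NOTCH3 is lower at 8 h than at 0 h in all 8.

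HES1 (chromosome 1, 73974240-73976720, minus strand) differed between the breeds in its course after LPS, which was the question of the interaction test. At 0 h it was at 36.9, 43.0, 41.5 and 50.3 CPM in Angus and 36.6, 29.1, 37.1 and 38.3 CPM in Holstein cultures. At 2 h it was at 12.8, 12.9, 7.38 and 11.8 CPM in Angus and 32.3, 22.2, 30.7 and 27.2 CPM in Holstein cultures. At 8 h it was back at 45.1, 43.0, 34.8 and 43.4 CPM in Angus and at 38.9, 27.9, 37.3 and 34.3 CPM in Holstein cultures. The Angus cultures thus held between 17.8% and 34.7% of their own 0 h level at 2 h, and the Holstein cultures between 71.0% and 88.4%, with no overlap.

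In Angus cultures HES1 fell at 2 h by 1.93 on the log2 scale (SE 0.19, FDR 2.59e-19), and it was the 1 of 8 members tested that was past the threshold there, against 2.98% of all rows. The JAG2 and HES4 rows did not pass the filter in Angus cultures. With the filter of 10 counts in total 3 members were past the threshold there, as were 621 of 41636 rows. In Holstein cultures the HES1 change was -0.33 (SE 0.14, FDR 0.102), lower in 4 of 4 animals. The interaction, which tests the difference between the breeds' changes, was 1.61 (SE 0.24, FDR 1.30e-07), and HES1 was the 6th of 20157 rows by FDR. HES1 was the 1 member of 9 tested past the threshold for the interaction at 2 h, where 0.278% of all rows were. It was past it under all 16 alternatives tried, with values from 1.29 to 1.74. With the animal as a block it was 1.63 (FDR 1.64e-15), and HEY1 was then past the threshold too (1.08, FDR 0.00946). Between the breeds HES1 was 1.32 higher in Holstein cultures at 2 h on the log2 scale (SE 0.21, FDR 4.38e-08), while at 0 h and 8 h it was lower by 0.27 and 0.26 (FDR 0.178 and 0.195). At 8 h the HES1 interaction was 0.01 (95% interval -0.36 to 0.37).

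**Figure D3:**
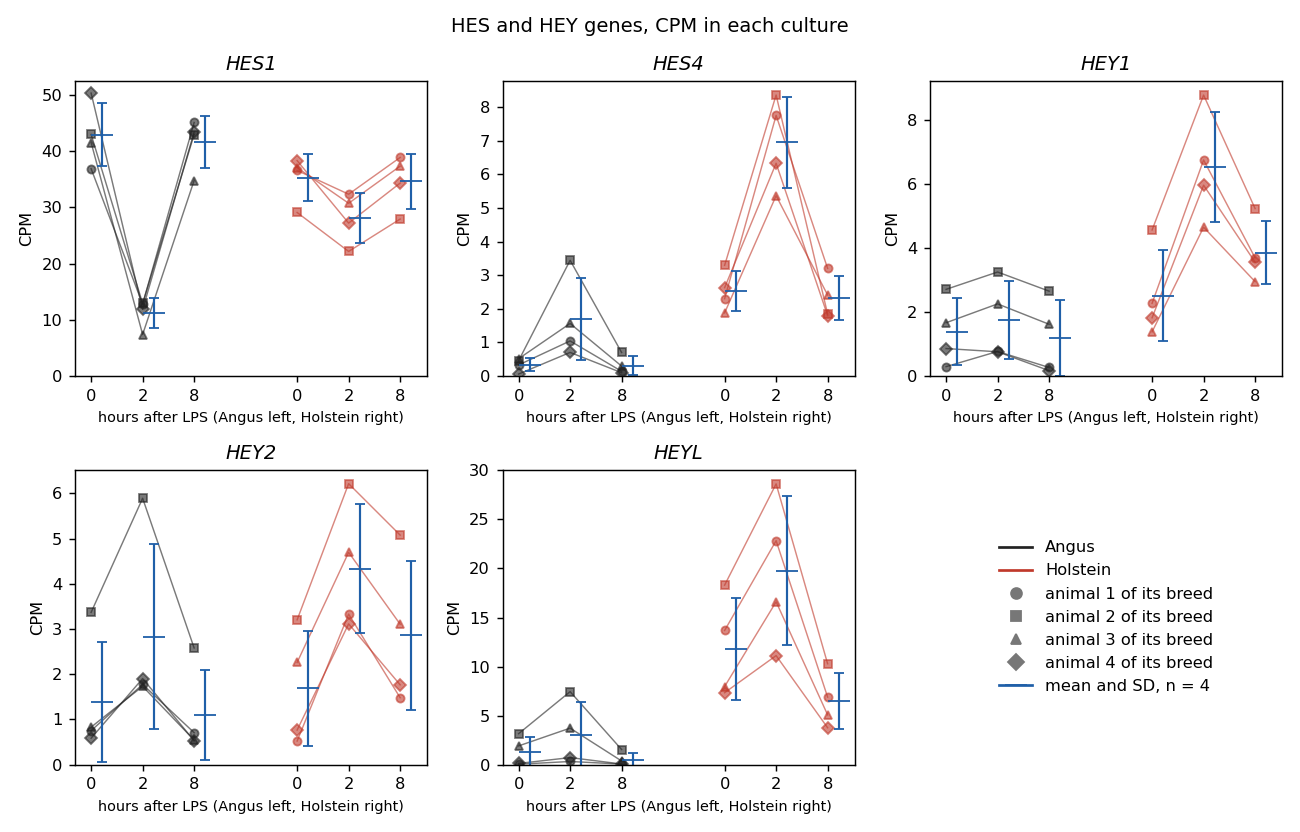
CPM of the 5 HES and HEY genes in each of the 24 cultures at 0 h, 2 h and 8 h (points joined by animal, Angus black on the left, Holstein red on the right), with the group mean and SD (n = 4) in blue. HES1 dips to 7.38 to 12.9 CPM in the Angus cultures at 2 h and stays at 22.2 CPM or above in the Holstein cultures, while HES4, HEY2 and HEYL peak at 2 h in all 8 animals.

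The next comparison asked which members changed at 2 h with the breeds combined. HEY2 was past the threshold (log2 change 1.23, SE 0.44, FDR 0.0285), 1 of 9 members tested, against 2.82% of all rows. HEY2 was higher at 2 h in 8 of 8 animals, from 0.753, 3.37, 0.831 and 0.585 CPM to 1.78, 5.89, 1.73 and 1.91 CPM in Angus, and from 0.523, 3.21, 2.26 and 0.766 CPM to 3.33, 6.22, 4.70 and 3.12 CPM in Holstein cultures. The HEY2 call was lost in the F test (FDR 0.0587) and without Holstein animal 1 (log2 change 1.11, FDR 0.0831), 3 (1.26, FDR 0.0545) or 4 (1.16, FDR 0.0736). With the animal as a block, which removes the spread between animals, 4 members were past the threshold, namely HEY2 (1.4, FDR 3.37e-12), HES4 (1.84, FDR 8.94e-18), HEYL (1.06, FDR 1.18e-11) and, lower, HES1 (-1.14, FDR 8.33e-05). Without the block the HEYL change was 0.80 with an SE of 0.86.

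NOTCH1 was close to 2-fold higher at 2 h in both breeds. It went from 81.6, 64.2, 50.6 and 91.1 CPM to 169, 141, 99.4 and 150.2 CPM in Angus, and from 69.5, 60.9, 67.2 and 63.6 CPM to 149.6, 114, 140.3 and 115 CPM in Holstein cultures. All 8 animals were higher, by 1.65-fold to 2.20-fold. The log2 change was 0.98 (SE 0.13, FDR 4.95e-12), just short of the fold limit, and it was 1.03 without Angus animal 4 and 1.01 without Holstein animal 4. The interaction for NOTCH1 was 0.03 (95% interval -0.47 to 0.54). At 8 h NOTCH1 was at 88.3 ± 11.7 CPM in Angus and 78.6 ± 12 CPM in Holstein cultures, nearer to the 0 h level.

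JAG2 was also higher at 2 h in 8 of 8 animals, by 2.26-fold to 5.99-fold, and was back near its 0 h level at 8 h. Its row did not pass the filter for the LPS comparisons. With the filter of 10 counts in total, its log2 change at 2 h was 2.24 (FDR 3.01e-04) with the breeds combined, 2.38 (FDR 1.93e-04) in Angus and 1.77 in Holstein cultures. In Holstein cultures that JAG2 change had an FDR of 9.68e-04 but a mean level under 1 CPM. NOTCH2 and JAG1 gave no call at 2 h. Their changes were -0.01 (95% interval -0.21 to 0.19) and 0.01 (-0.60 to 0.61) on the log2 scale, and that of NOTCH3 was -0.05 (-0.88 to 0.78). These intervals are from the fit without the block and hold the spread between animals. Within the 8 animals the log2 changes ran from -0.08 to 0.06 for NOTCH2, -0.10 to 0.18 for JAG1 and -0.40 to 0.16 for NOTCH3.

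Within Holstein cultures at 2 h, HES4 and HEY1 were past the threshold, 2 of 9 members tested, against 3.14% of all rows. HES4 rose by 1.46 (SE 0.23, FDR 1.37e-08) on the log2 scale, and HEY1 by 1.37 (SE 0.37, FDR 0.00281), from 2.27, 4.56, 1.38 and 1.82 CPM at 0 h to the 2 h values given above. HEY1 was 1.92-fold to 3.37-fold higher in the 4 Holstein animals and 0.882-fold to 2.63-fold in the 4 Angus animals. Without Holstein animal 1 the HEY1 change was 1.31 (FDR 0.0681). With the block HEY2 was added (1.62, FDR 1.85e-07). In Angus cultures the block added HEY2 (1.18, FDR 3.10e-09) and HEYL (1.57, FDR 1.20e-07) to HES1.

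**Figure D4:**
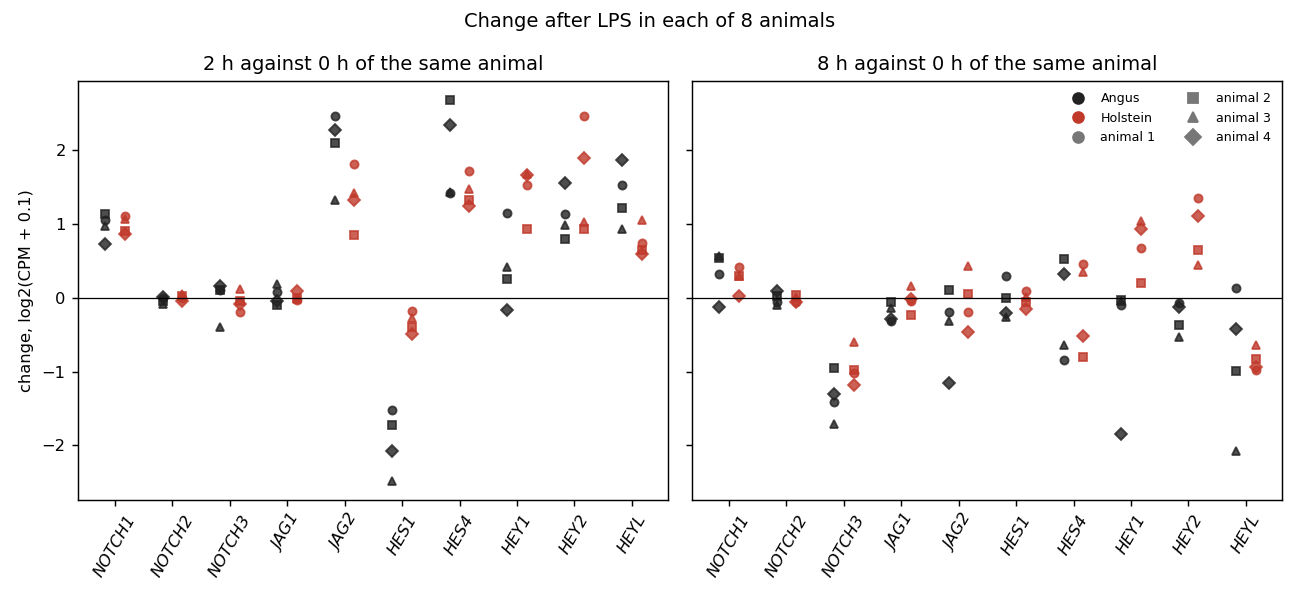
Change of each gene from the 0 h sample of the same animal, as log2(CPM + 0.1), at 2 h (left) and 8 h (right), 1 point per animal, Angus black and Holstein red. At 2 h all 8 animals lie above 0 for NOTCH1, JAG2, HES4, HEY2 and HEYL and below 0 for HES1, where the Angus points (-2.48 to -1.52) lie apart from the Holstein points (-0.49 to -0.18); at 8 h all 8 lie below 0 for NOTCH3.

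At 8 h with the breeds combined, 0 of 9 members tested were past the threshold in edgeR's likelihood-ratio test, against 1.42% of all rows, with 2 at an unadjusted p under 0.05. The count was also 0 of 9 in Holstein cultures (2.51% of all rows, 3 at an unadjusted p under 0.05) and 0 of 6 in Angus cultures (0.863% of all rows, 1 at an unadjusted p under 0.05). DESeq2 and the F test gave 0 in all of these. NOTCH3 nevertheless was lower at 8 h than at 0 h in 8 of 8 animals, at 30.6% to 51.7% of the 0 h level in Angus and 43.9% to 65.7% in Holstein cultures. The log2 change of NOTCH3 was -1.04 (SE 0.47, FDR 0.139) with the breeds combined, -0.95 (SE 0.32, FDR 0.0266) in Holstein and -1.30 (SE 0.52, FDR 0.175) in Angus cultures. With the animal as a block it was -1.14 (FDR 9.05e-25), -0.94 (FDR 3.31e-18) and -1.34 (FDR 3.29e-25), so that the combined and the Angus values were past the threshold. HEYL was lower in all 4 Holstein cultures and in 3 of 4 Angus cultures, and with the block its change with the breeds combined was -1.03 (FDR 3.78e-08).

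HEY1 and HEY2 were above their 0 h level at 8 h in every Holstein culture and in no Angus culture. HEY2 was higher than at 0 h in 4 of 4 Holstein cultures, at 1.48, 5.08, 3.11 and 1.77 CPM, and lower in 4 of 4 Angus cultures, at 0.708, 2.58, 0.545 and 0.530 CPM. HEY1 was at 162.5%, 114.6%, 213.6% and 195.5% of its 0 h level in Holstein animals 1 to 4. In Angus animals 1 to 3 it was near the 0 h level, at 91.1%, 97.9% and 97.1%. In Angus animal 4 it was at 19.5%, from 12 counts at 8 h. No member was past the threshold for the interaction at 8 h, 0 of 9 tested, against 0.0982% of all rows. edgeR's likelihood-ratio test, its F test and DESeq2 each gave 0, also at an unadjusted p under 0.05. With the animal as a block the interaction of HEY2 was past it (1.19, FDR 0.00149) and that of HEY1 was 1.24 (FDR 0.0927).

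HEYL ran close to NOTCH3, JAG1 and HES4 over the samples. On log2(CPM + 1), Pearson's r between HEYL and NOTCH3 was 0.921 over the 24 samples, 0.842 over the 12 Angus samples and 0.898 over the 12 Holstein samples. These points share animals (3 samples each), libraries and, in the pooled value, the breed difference, so r is given as a description. Between HEYL and JAG1 r was 0.921, 0.829 and 0.575, and between JAG1 and NOTCH3 it was 0.863, 0.765 and 0.629. Between HEYL and HES4 it was 0.917 over the 24 samples. Within the 8 samples of 0 h, 2 h and 8 h in turn, r of HEYL was 0.963, 0.972 and 0.962 to NOTCH3 and 0.966, 0.992 and 0.948 to JAG1. HEYL and NOTCH3 did not move together at every step, since HEYL was higher at 2 h in all 8 animals and NOTCH3 in 4 of 8. HES1 stood apart from the other targets, with r of -0.24 to HES4, -0.11 to HEY1, -0.35 to HEY2 and -0.10 to HEYL, and -0.68 to JAG2.

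**Figure D5:**
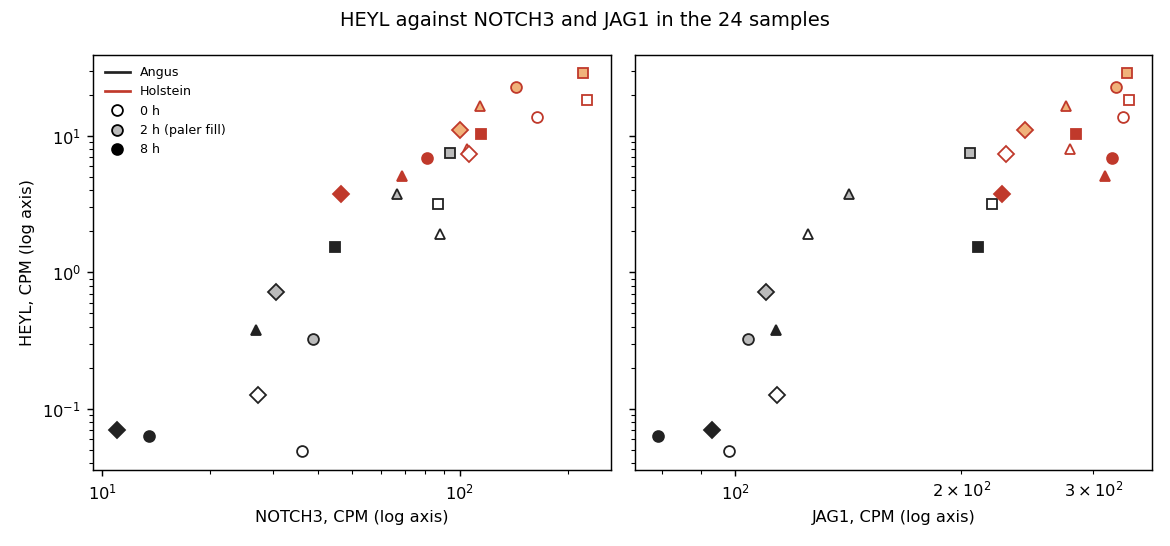
CPM of HEYL against CPM of NOTCH3 (left) and JAG1 (right) in the 24 samples, log axes, Angus black and Holstein red, open at 0 h, pale at 2 h and filled at 8 h; the 4 marker shapes are animals 1 to 4 of a breed. HEYL runs from 0.049 CPM in Angus animal 1 at 0 h to 28.6 CPM in Holstein animal 2 at 2 h, and the Holstein points lie at the upper right in both panels.

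Among 12945 rows with a symbol and 1 CPM or more in at least 12 samples, the genes whose levels ran most like those of HEYL were SLC6A6, the taurine transporter (r = 0.969 over 24 samples), and CASK (0.957). For JAG1 they were TGFB2, a TGF-beta ligand (0.945), and SLC6A6 (0.938), for NOTCH3 CALD1, the actin-binding caldesmon (0.940), and NPR2 (0.937), for NOTCH1 SEPT5 (0.949) and for NOTCH2 MBTD1 (0.882). For HES4 they were GRIP2 (0.943) and GADD45B (0.929), for JAG2 PEX5L (0.913) and SRF, the serum response factor (0.912), and for HES1 DDX59 (0.893). HEY1 ran most like SLC20A2 (0.902) and HEY2 like ECE2 (0.900).

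The wider pathway was read from a list of 58 other Notch genes, of which 57 had a row. Between the breeds 1 of 42 tested was past the threshold at 0 h, DNER, an atypical ligand that was lower in Holstein cultures by 1.00 on the log2 scale (FDR 0.0188; by the F test 0.0659), and 0 of 44 at 2 h and 0 of 43 at 8 h were in edgeR's likelihood-ratio test, its F test and DESeq2, with 11 and 12 at an unadjusted p under 0.05 in the first. Over all rows these shares were 3.81%, 4.45% and 3.24%. At 2 h with the breeds combined 3 of 42 rose, against 2.82% of all rows past the threshold in either direction, namely FURIN, the protease that matures Notch receptors (1.18, FDR 1.56e-18), LFNG, the Fringe enzyme that modifies the receptors' sugars (1.01, FDR 5.38e-05), and NUMBL, a Numb-family adaptor (1.04, FDR 1.48e-18). LFNG went from 31.4 ± 8.8 to 83.2 ± 11.2 CPM (SD, n = 4) in Holstein cultures and from 32.3 ± 7.4 to 44.6 ± 9.2 CPM in Angus cultures, an interaction of 0.94 (SE 0.31, FDR 0.259; with the block 8.96e-07). At 8 h in Holstein cultures 2 of 43 were past the threshold, against 2.51% of all rows. DTX3L, a Deltex-family ubiquitin ligase, rose (1.36, FDR 8.53e-21) and the ligand DLL1 fell by 1.02 (FDR 0.0246; by the F test 0.0695), and the interaction of DTX3L was 1.01 (FDR 0.00283; by the F test 0.227). The DTX3L row overlaps that of PARP9, and reads that both rows hold cannot be told apart. Of the 57 with a row, 13 averaged under 1 CPM in each of the 6 groups. Among them, named after their values were seen, were the ligand DLL4 and the targets HES5 and NRARP. HES7, another HES repressor, also named after its values were seen, ran from 0 to 0.068 CPM at 0 h, from 0.701 to 1.10 CPM at 2 h and from 0.042 to 0.175 CPM at 8 h in Angus cultures. In Holstein cultures HES7 ran from 0.029 to 0.164 CPM, from 1.09 to 1.27 CPM and from 0.049 to 0.259 CPM at these hours, so that the 2 h values lay above those at 0 h and 8 h in both breeds. Its log2 change at 2 h was 3.32 (SE 0.34, FDR 1.62e-25) in Holstein cultures and, with the filter of 10 counts, 4.5 (FDR 1.81e-19) in Angus cultures, at a mean level under 1 CPM that kept both from the threshold. RBPJ, the nuclear partner of Notch, averaged 18.9 to 24.2 CPM over the 6 groups.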

How the data were processed

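Messenger RNA libraries from 24 fibroblast samples were analysed, grouped by the breed, animal number and hour in the sample labels. The authors used NextGENe 2.3.4 to place quality-filtered reads on the bovine assembly UMD v3.1, and deposited 1 table per sample. Its read counts are whole-number counts per row, not normalized by the authors. The mean coverage of each row, the signal column the authors deposited beside the counts, was used as a check of the counting. Rows are whole gene spans with their introns, or intervals that carry no symbol, so exons and untranslated regions are not separated and counts are not known to use strand. Intervals of log2 differences come from the SE of the fit without the block, so those of changes after LPS hold the spread between animals. Limits from counts cover counting error only.

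Counts were fitted in edgeR 4.0.16 (R 4.3.3) with TMM scaling and a likelihood-ratio test, after the study's methods, on rows with 1 CPM or more in at least 50% of the samples compared. Each of the 11 comparisons used its own samples, without a block, and FDR was adjusted over all rows tested. Past the threshold means FDR under 0.05, 2-fold or more and a mean above 1 CPM. Alternatives were the edgeR F test, DESeq2 1.42.0, median-of-ratios scaling, total counts alone, 10 counts in total as the filter, FDR alone, the animal as a block, each animal left out, and leaving out the libraries counted differently. The fits were tested on simulated data. The animal pairs the hours by the labels: deviations from group means correlated within an animal (lowest r 0.546 for 0 h and 2 h, 0.535 for 0 h and 8 h). All 10 members were named by rule, and other pathway genes where past the threshold. For the genes most like a member, the first 3 by Pearson's r were found and at least the first is named. Members and lists were chosen with earlier results of these data known. Names and the NOTCH3 gene ID were looked up in RefSeq's gene table, whose assembly differs from the files', so positions are those of the files. No sequence was used here.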

Additional observations from a re-analysis of the deposited data

Results flagged for a closer look

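HES1 was flagged because its change at 2 h post-LPS differed between the breeds by the interaction test, at 1.61 on the log2 scale (SE 0.24, FDR 1.30e-07), with all 4 Angus cultures below all 4 Holstein cultures in their change.

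HEY2 in Angus animal 2 stood far above the other 3 Angus cultures at each hour. It was at 3.37 CPM at 0 h against 0.585 to 0.831 CPM, at 5.89 CPM at 2 h against 1.73 to 1.91 CPM, and at 2.58 CPM at 8 h against 0.530 to 0.708 CPM. The gap took 91.1%, 95.9% and 91.3% of the group's range, above the limit of 82.9% for 4 samples. These 3 came from 60 groups checked, of which chance flags about 1 in 20, and the 3 are samples of 1 animal.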

How the results depend on the processing

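Of the single-gene values under an alternative, 1206 kept their direction and side of the threshold, 39 passed it newly, 21 no longer passed it, and 82 changed direction with neither value past it, from a size of 0.49 on the log2 scale or less. These include, without the libraries counted differently, NOTCH1 (0.06) and NOTCH2 (-0.01) between the breeds at 0 h, NOTCH3 at 2 h with the breeds combined (0.14) and HES4 at 8 h in Holstein cultures (0.17). No value past the threshold changed direction. The count of members past the threshold between the breeds at 0 h (4) was 2 by the F test, 0 without the libraries counted differently (5 samples left), and 1 to 4 with an animal left out. For LPS at 2 h with the breeds combined (1) it was 0 by the F test, 2 with total counts alone, 2 with the filter of 10 counts, 3 with FDR alone, 3 without the libraries counted differently, 4 with the replicate block, and 1 to 3 with an animal left out. For 2 h in Angus cultures (1) it was 3 with the filter of 10 counts, 2 with FDR alone, 3 with the block, 3 without the libraries counted differently and 1 to 3 with an animal left out, and for 2 h in Holstein cultures (2) it was 1 to 4 with an animal left out. At 8 h the block gave 2 with the breeds combined and 1 in Angus cultures, where the count was 0, and FDR alone or leaving out those libraries gave 1 in Holstein cultures. For the interaction the block gave 2 at 2 h (1 without it) and 1 at 8 h (0 without it). Where not stated, the cause was not tested. Equal animal numbers do not pair the breeds (mean r -0.112 at 0 h), and a block on the number gave 4, 7 and 6 between the breeds at 0, 2 and 8 h. Low counts limit HES4, HEY1 and HEYL in Angus cultures and JAG2 and HEY2 in both breeds, and 4 animals per breed limit all.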
